A study of Mus musculus with 6 samples.

Results

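The unfolded protein response genes described here are Xbp1, Hspa5, Ddit3, Atf4, Ern1, Ern2, Creb3l1, Herpud1, Sdf2l1 and Dnajb9, taken by symbol from the deposited expression table. All 10 were found among the 21397 genes of the table, and all 10 were among the 10551 genes that could be tested, which are those with a mean of at least 1 FPKM over the 6 libraries. FPKM, the unit of the table, is the number of sequenced fragments of a gene divided by the gene's length and by the size of the library, so that genes of different length can be set side by side. Between libraries it also depends on what the other genes do, so values under other scalings are given below. The study asked how activation of formyl peptide receptor 2 (FPR2), a G protein-coupled receptor, changes gene expression in the intestinal epithelium. Organoids, which are epithelial structures grown from crypts in a gel, were made from the small intestine of Fpr2f/f mice and kept for 5 days with MMK-1, a peptide agonist of FPR2, or with 0.1% DMSO as vehicle (control). The mice of both groups carried the same floxed Fpr2 allele and no Cre driver is named for them, so the receptor gene was the same in all samples. The protocol text gives the MMK-1 dose as 1 μM, while the treatment label gives 1 mM. Each sample pooled organoids of 3 mice. Each group had 3 libraries, and nothing in the labels says that these came from separate cultures, so the p-values below measure the spread between these samples, which may be technical.

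The unfolded protein response is the reaction of a cell to misfolded protein in the endoplasmic reticulum (ER). It runs through 3 sensors in the ER membrane: IRE1, which splices the mRNA of the transcription factor XBP1, PERK, which slows translation and favours the making of ATF4, and ATF6, which is cut in the Golgi to free a transcription factor. These factors raise the transcription of ER chaperones, of folding and transport machinery and of the genes of ER-associated degradation (ERAD), which removes misfolded proteins to the proteasome. In the intestine the response is best known from the secretory Paneth and goblet cells, where XBP1 and the epithelial sensor IRE1β are needed to cope with the secretory load.

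Promoter sequence is shown for 4 of the members, picked by the values that follow. These are Hspa5, whose level hardly differed between the groups, Herpud1 and Xbp1, which were lower with MMK-1, and Ern1, which was higher. Atf4, which differed even less than Hspa5, is not shown. Each run is the 250 bases before the annotated RefSeq start in GRCm38.p6, the same assembly as mm10, read 5′ to 3′ on the gene's own strand, and capitals mark matches to the motifs named next.
Hspa5, chr2:34771840-34772089, plus strand: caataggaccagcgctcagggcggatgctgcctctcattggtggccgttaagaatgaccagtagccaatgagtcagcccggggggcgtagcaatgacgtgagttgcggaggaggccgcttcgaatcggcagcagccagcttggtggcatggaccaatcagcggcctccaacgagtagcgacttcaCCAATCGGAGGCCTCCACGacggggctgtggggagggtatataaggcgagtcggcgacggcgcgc
Herpud1, chr8:94386179-94386428, plus strand: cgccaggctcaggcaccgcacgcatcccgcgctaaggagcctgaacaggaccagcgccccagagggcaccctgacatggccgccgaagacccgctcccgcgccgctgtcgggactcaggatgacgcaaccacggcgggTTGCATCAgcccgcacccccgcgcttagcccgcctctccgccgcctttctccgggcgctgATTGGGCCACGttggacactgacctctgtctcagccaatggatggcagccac
Xbp1, chr11:5520391-5520640, plus strand: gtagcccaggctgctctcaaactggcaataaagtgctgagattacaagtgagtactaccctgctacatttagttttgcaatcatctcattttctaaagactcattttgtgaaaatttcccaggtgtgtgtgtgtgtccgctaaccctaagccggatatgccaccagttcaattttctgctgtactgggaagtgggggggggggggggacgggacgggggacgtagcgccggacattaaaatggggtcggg
Ern1, chr11:106487797-106488046, minus strand: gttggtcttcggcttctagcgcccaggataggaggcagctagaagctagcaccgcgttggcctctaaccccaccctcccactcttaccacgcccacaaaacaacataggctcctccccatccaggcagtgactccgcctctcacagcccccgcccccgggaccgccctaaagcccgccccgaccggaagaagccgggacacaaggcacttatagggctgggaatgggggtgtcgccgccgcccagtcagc

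The motifs searched on both strands were the ER stress response element (ERSE, CCAAT and CCACG with 9 free bases between them), its shorter form ERSE-II (ATTGG and CCACG with 1 free base between them), the unfolded protein response element (UPRE, TGACGTGG) and the C/EBP-ATF response element bound by ATF4 and CHOP (CARE, TGATGNAA). Promoter sequence was at hand for 8 of the 10 members. The Hspa5 promoter held the ERSE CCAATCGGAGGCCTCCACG at bases 65 to 47 before the start, and the Herpud1 promoter held the ERSE-II ATTGGGCCACG at bases 52 to 42 and a CARE, on the other strand, at bases 112 to 105. No match to any of these motifs lay in the Xbp1 or Ern1 window. Of the 8 members 1 held an ERSE, 1 an ERSE-II, 1 a CARE and 0 a UPRE. Among all 32851 promoters of the same length an ERSE was found in 0.113%, an ERSE-II in 0.0304%, a UPRE in 0.563% and a CARE in 3.45%. Here and below the members and gene groups are counted by gene. The shares of all promoters count each promoter, and are not limited to the genes tested. The short box CCACG, which both ERSE forms contain, was in 6 of the 8 members and 28.3% of all promoters. The CCAAT box, which they also contain (ATTGG is its other strand), was in 6 of the 8 and in 33.8% of all. A match is a description of the letters in this window and not a mapped binding site.

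MMK-1 treatment did not move the members in one direction. The IRE1α gene Ern1 rose to 2.02 times its control FPKM, Xbp1 and Herpud1 fell by 15.3% and 22.5% of the control mean, smaller rises were called for Sdf2l1, Creb3l1, Ddit3 and Dnajb9, and Hspa5, Atf4 and Ern2 did not pass the test. In the limma test on log2(FPKM + 1), with Benjamini-Hochberg adjustment over all genes tested and an adjusted p of at most 0.05, 7 of 10 members were called, 5 higher and 2 lower. Of all genes tested 73.2% were called, 48.5% higher and 24.7% lower, so the share of members called lay near that of the whole table. The members' median log2 fold change was 0.08, against 0.13 over all genes tested. That shift of the whole table bears on every small rise below: with each library scaled to the same upper quartile the all-gene median was -0.00, and 1 member was then called higher and 4 lower, against 71.8% of all genes called, 34.8% higher and 37% lower. With limma-voom on the recovered fragments 5 members were called higher and 2 lower, against 73% of all genes, 48.5% higher and 24.5% lower.

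**Figure D1:**
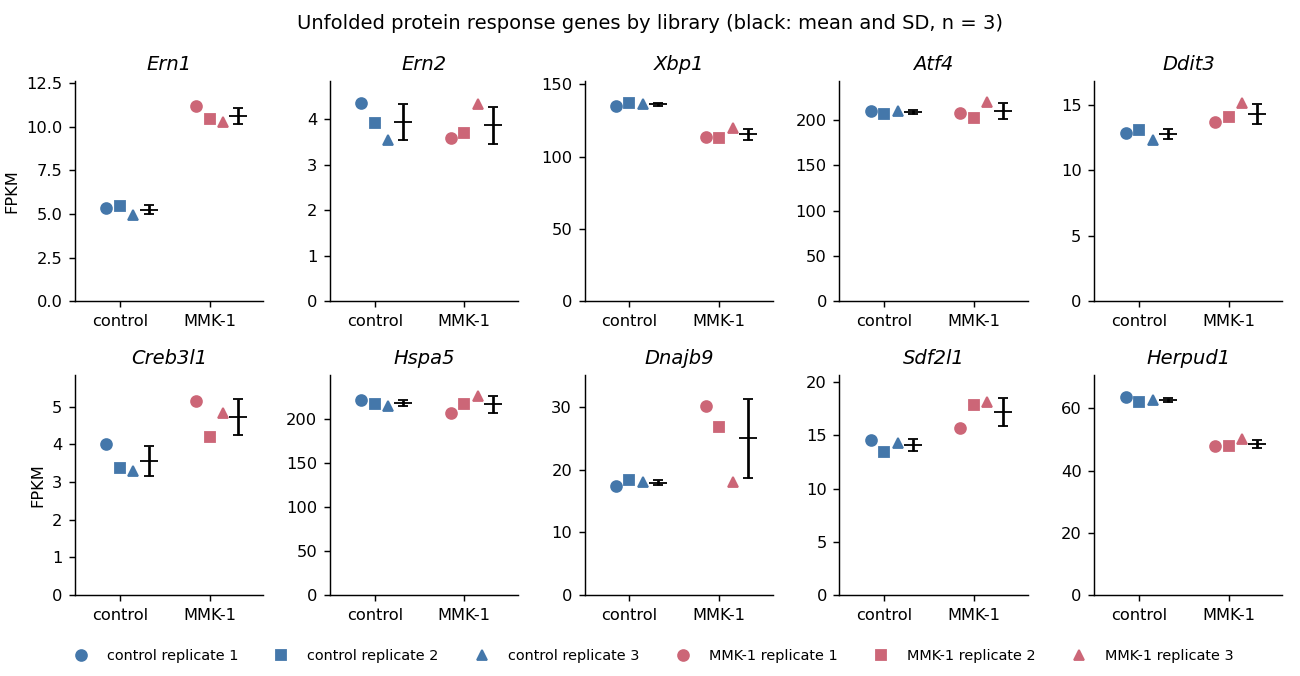
FPKM of the 10 unfolded protein response genes in each library, on axes that start at 0, with points for single libraries and bars for the group mean and SD (n = 3). Ern1 is higher and Xbp1 and Herpud1 are lower in all 3 MMK-1 libraries than in any control library, and Dnajb9 of MMK-1 replicate 3 lies with the control libraries.

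Totals recovered from the steps of the FPKM values were 35512739 to 37537463 fragments per library. MMK-1 replicate 3 stood apart from its group: its fragment counts differed from those of the other MMK-1 libraries by 31.3 and 36.6 times the sampling noise (chi-square over genes divided by its degrees of freedom), whereas MMK-1 replicates 1 and 2 differed by 3.57 times and pairs of control libraries by 2.83 to 4.97 times. It was lower for AT-rich genes, with a median log2 difference from the mean of replicates 1 and 2 of -0.42 over the 48 genes with a GC content up to 36% and 0.11 over the 370 genes above 60%. Without this library the same 7 members were called, in the same directions as with all 6 libraries.

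Among the sensors, Ern1 (chromosome 11, 106397620 to 106487796, minus strand, GRCm38.p6), which encodes IRE1α, the kinase and endoribonuclease that splices Xbp1 mRNA, was at 5.35, 5.44 and 4.97 FPKM in the control libraries and at 11.2, 10.4 and 10.3 FPKM in the MMK-1 libraries. The groups did not overlap, and the mean of the MMK-1 libraries was 2.02 times that of the controls (5.25 ± 0.248 against 10.6 ± 0.475 FPKM, SD, n = 3). The log2 fold change was 0.89 (SE 0.0529, 95% CI 0.77 to 1.01, limma adjusted p = 1.1e-06). Behind these values stood 1306 to 1435 fragments in the control and 2632 to 2785 in the MMK-1 libraries. Ern1 was called higher in all 13 alternative fits, with adjusted p-values between 1.5e-07 and 6.6e-05. Since the samples are bulk RNA of whole organoids, a change in the number of cells of a type cannot be told apart from a change in RNA per cell, here and in what follows.

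Ern2 (chromosome 7, 122169893 to 122186239, minus strand), which encodes the related sensor IRE1β of epithelial and above all mucus-secreting cells, was at 4.36, 3.91 and 3.55 FPKM in controls and 3.59, 3.70 and 4.33 FPKM with MMK-1. The groups overlapped over nearly their whole range, and the log2 fold change of -0.02 did not pass the test (SE 0.0803, 95% CI -0.20 to 0.16, limma adjusted p = 0.83). Replicate 3 was the highest of the MMK-1 libraries. Ern1 stood above Ern2 in all 6 libraries, by a larger factor with MMK-1: its FPKM was 1.23, 1.39 and 1.40 times that of Ern2 in the control libraries and 3.11, 2.82 and 2.37 times with MMK-1, ranges that did not overlap.

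Among the transcription factors, Xbp1 (chromosome 11, 5520641 to 5525993, plus strand), the factor made from the mRNA that IRE1 splices, was at 135, 137 and 137 FPKM in controls and at 114, 113 and 119.8 FPKM with MMK-1. Every MMK-1 library lay below every control library. The means were 136 ± 0.979 and 115 ± 3.79 FPKM (SD, n = 3), a log2 fold change of -0.24 (SE 0.0387, 95% CI -0.33 to -0.15, limma adjusted p = 0.00053), and Xbp1 was called lower in all 13 alternatives, at -0.40 with upper-quartile scaling. The table gives 1 value per gene, so spliced and unspliced Xbp1 mRNA were not separated and the rise of Ern1 mRNA beside the fall of Xbp1 mRNA says nothing of IRE1 activity.

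Atf4 (chromosome 15, 80255184 to 80257545, plus strand), the effector of PERK and of the other eIF2α kinases, was at 210.4, 207 and 210.2 FPKM in controls and 208, 202 and 220.0 FPKM with MMK-1. The MMK-1 libraries spread to both sides of the controls, with replicate 3 highest. Its log2 fold change was 0.01 (SE 0.0418, 95% CI -0.09 to 0.10, limma adjusted p = 0.91), while scaling to the upper quartile gave -0.15 (adjusted p = 0.0039) and a call lower. ATF4 is controlled largely at translation, which these data do not measure.

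Ddit3 (chromosome 10, 127290793 to 127296291, plus strand), which encodes CHOP, the factor tied to cell death under lasting ER stress, was at 12.8, 13.1 and 12.4 FPKM in controls and at 13.7, 14.1 and 15.2 FPKM with MMK-1. The groups did not overlap, but the difference was small (12.8 ± 0.386 against 14.3 ± 0.762 FPKM, SD, n = 3), with a log2 fold change of 0.15 (SE 0.0507, 95% CI 0.04 to 0.27, limma adjusted p = 0.023). It was near the shift of the whole table, and upper-quartile scaling took it to 0.00 (adjusted p = 0.94), median-of-ratios scaling to 0.01 (adjusted p = 0.77) and GC correction to 0.00 (adjusted p = 0.996). The GC correction, like the scalings, also removed that shift. The call was also lost without control replicate 1 (adjusted p = 0.058) and without control replicate 3 (adjusted p = 0.089). Ddit3 shares exon bases with Mars and Gm4189 on the other strand, and since it is not stated whether counting used strand, reads of these genes may not be separated.

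Creb3l1 (chromosome 2, 91982328 to 92024170, minus strand), which encodes the ER-bound factor OASIS, was the lowest member in the controls, at 4.01, 3.38 and 3.29 FPKM, and stood at 5.16, 4.20 and 4.83 FPKM with MMK-1. All 3 MMK-1 libraries were above the controls, by a narrow margin between control replicate 1 and MMK-1 replicate 2. The log2 fold change was 0.33 (SE 0.0825, 95% CI 0.14 to 0.52, limma adjusted p = 0.0059). These values rest on 279 to 341 fragments in control and 343 to 416 in MMK-1 libraries, and the call was lost under upper-quartile scaling (0.20, adjusted p = 0.057) and after GC correction (0.20, adjusted p = 0.052).

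Among the ER residents, Hspa5 (chromosome 2, 34772090 to 34776529, plus strand), which encodes BiP, the main ER chaperone and the usual readout of the response, was the most abundant member. It was at 221, 216 and 214 FPKM in controls and at 207, 216 and 226 FPKM with MMK-1, so the groups overlapped and MMK-1 replicates 1 and 3 lay at the extremes. Its log2 fold change was -0.01 (SE 0.0429, 95% CI -0.10 to 0.09, limma adjusted p = 0.89), and upper-quartile scaling gave -0.17 (adjusted p = 0.0029), a call lower. The ERSE shown above lies in the promoter of this gene. Relative to Xbp1, Hspa5 was at 1.63, 1.58 and 1.57 times the FPKM in controls and at 1.82, 1.92 and 1.88 times with MMK-1.

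Sdf2l1 (chromosome 16, 17130138 to 17132383, minus strand), a partner of BiP and its J-domain proteins, was at 14.5, 13.5 and 14.3 FPKM in controls and 15.7, 17.8 and 18.1 FPKM with MMK-1. The groups did not overlap, and the means differed by a factor of 1.22 (log2 fold change 0.27, SE 0.0616, 95% CI 0.13 to 0.41, limma adjusted p = 0.0039). The call was lost with upper-quartile scaling (0.12, adjusted p = 0.096) and with median-of-ratios scaling (0.13, adjusted p = 0.075), and it held after a correction for GC content (0.18, adjusted p = 0.016).

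Dnajb9 (chromosome 12, 44205897 to 44210068, minus strand), which encodes ERdj4, a J-domain partner of BiP and a known target of spliced XBP1, divided the MMK-1 group. It was at 17.5, 18.3 and 18.0 FPKM in controls and at 30.1, 26.8 and 18.0 FPKM with MMK-1. Replicates 1 and 2 were above every control, while replicate 3 was among them. The log2 fold change over all libraries was 0.43 (SE 0.152, 95% CI 0.08 to 0.78, limma adjusted p = 0.031), and without MMK-1 replicate 3 it was 0.64 (SE 0.0503, adjusted p = 1.0e-05). Leaving out any other library ended the call, with adjusted p-values of 0.060 without control replicate 2, 0.069 without control replicate 3, 0.074 without control replicate 1, 0.093 without MMK-1 replicate 2 and 0.097 without MMK-1 replicate 1. The longest transcript of Dnajb9 had the lowest GC content of the members, 40.6%, against 45.6% to 59.5% for the others. In replicate 3 its log2 value lay 0.63 below the mean of replicates 1 and 2, and 1.45% of the genes tested lay lower. After correction for GC content, which also removes the shift of the whole table, the change was 0.12 (adjusted p = 0.38). Under upper-quartile scaling it was 0.28 (adjusted p = 0.17). The call was also lost when no filter on low genes was used (adjusted p = 0.12).

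**Figure D2:**
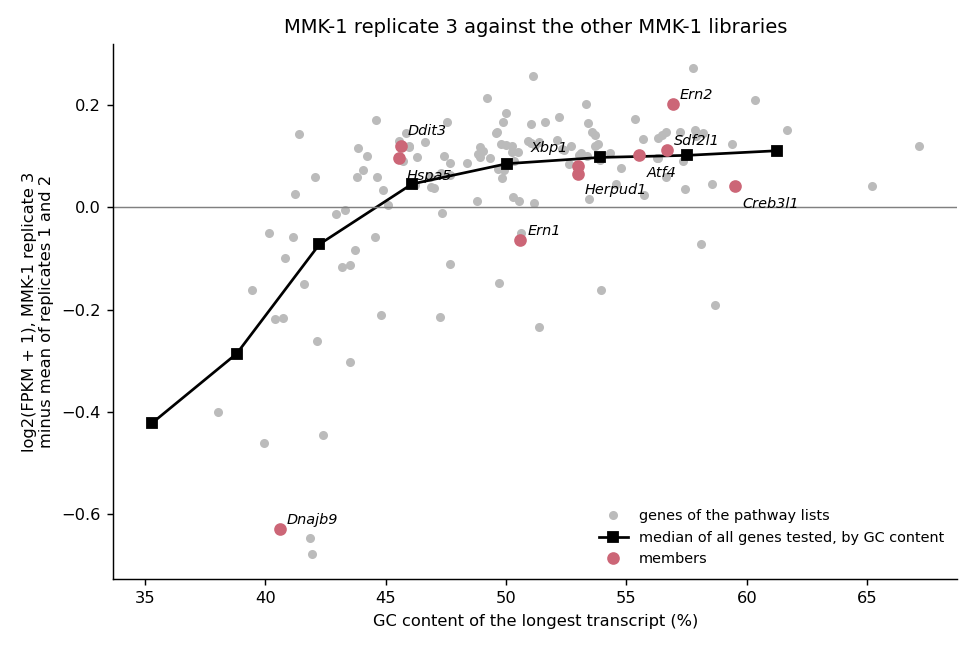
Log2 difference of MMK-1 replicate 3 from the mean of MMK-1 replicates 1 and 2, against the GC content in percent of each gene's longest transcript, with the median per GC bin and the 10 members marked. Dnajb9, at a GC content of 40.6%, lies at -0.63, below the median of -0.07 of its bin, while 8 of the other members lie between 0.04 and 0.20.

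Herpud1 (chromosome 8, 94386429 to 94395371, plus strand), an ER membrane protein of the degradation complex around the ligase HRD1, was at 63.5, 62.1 and 62.6 FPKM in controls and at 47.8, 47.9 and 50.1 FPKM with MMK-1. The groups lay far apart relative to their spread. The means were 62.7 ± 0.732 and 48.6 ± 1.31 FPKM (SD, n = 3), a log2 fold change of -0.36 (SE 0.0385, 95% CI -0.45 to -0.27, limma adjusted p = 3.9e-05). It was called lower in all 13 alternatives, with adjusted p-values between 2.7e-06 and 0.00047. Its promoter is the one above that held both an ERSE-II and a CARE.

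The levels of 6 of the 10 members did not overlap between the groups, 4 higher and 2 lower, against 76.8% of all genes tested, of which 50.5% were higher and 26.3% lower with MMK-1. The exact two-sided permutation test of a single gene cannot go below 0.1 with 3 libraries against 3, and it gave 0.1 for these 6 members, 0.3 for Dnajb9 and 0.9 for Hspa5, Atf4 and Ern2. The study's methods ask for a 2-fold change together with an unadjusted p of 0.05 or less. By limma 0 of the 10 members met both, although 7 met the second, while 7.04% of all genes tested met both, 3.39% higher and 3.65% lower. With limma-voom on the recovered fragments, or with a pseudocount of 0.1 in place of 1, 1 member met both, Ern1 (log2 fold change 1.02 with limma-voom).

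**Figure D3:**
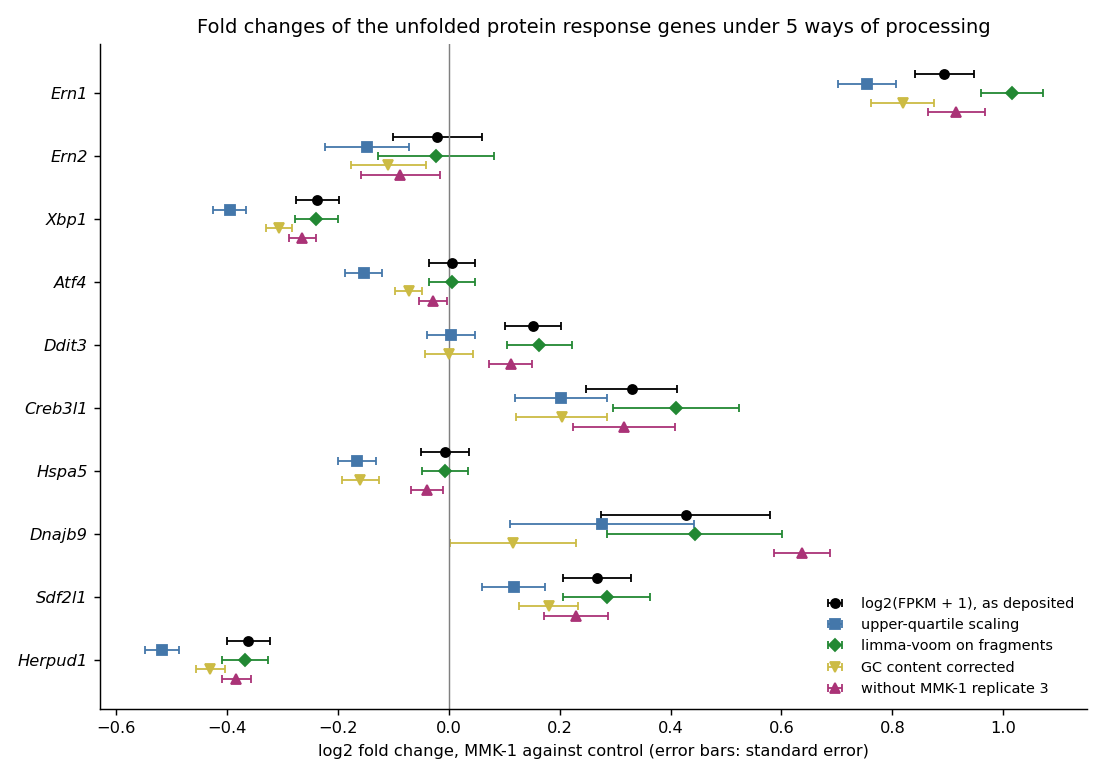
Log2 fold change of MMK-1 against control for each member, as deposited and under other ways of processing, with bars for the standard error. Ern1 stays above 0 and Xbp1 and Herpud1 below 0 under each of them, while Hspa5 and Atf4 move from about 0 to below 0 under upper-quartile scaling.

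By level, the members spanned a wide range in the control libraries. Hspa5 (217 FPKM) and Atf4 (209 FPKM) were above 97.1% and 97.0% of the genes tested, followed by Xbp1 (136 FPKM) and Herpud1 (62.7 FPKM). Dnajb9 (17.9 FPKM), Sdf2l1 (14.1 FPKM) and Ddit3 (12.8 FPKM) stood in the middle, and Ern1 (5.25 FPKM), Ern2 (3.94 FPKM) and Creb3l1 (3.56 FPKM) were lowest, the last above 24.3% of the genes tested. Over the 3 control libraries no pair of neighbours in this order overlapped except Ern2 and Creb3l1. With MMK-1 the order was the same but for Creb3l1, which then stood above Ern2. Among the MMK-1 libraries the values of Hspa5 overlapped with those of Atf4, Dnajb9 with Sdf2l1, and Creb3l1 with Ern2.

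Other genes of the pathway were grouped by role, and the counts are those of the same limma test. The groups were written down with results of these data known. In the group of sensors and processing proteases 4 of 10 genes rose and 2 fell, with a median log2 fold change of 0.08, near the all-gene shares of 48.5% higher and 24.7% lower. Upper-quartile scaling turned this to 1 higher and 4 lower (median -0.05), against 34.8% and 37% of all genes. Mbtps2, the site-2 protease that helps free ATF6, went from 4.60 ± 0.183 to 9.58 ± 1.84 FPKM (0.90, adjusted p = 0.00012), and Mbtps1, the site-1 protease, rose by 0.25 (adjusted p = 0.0017), a call lost under upper-quartile scaling (0.09, adjusted p = 0.067). Mbtps2 was lower in MMK-1 replicate 3 by 0.46 on the log2 scale and stood at 0.57 after GC correction. The haem-regulated kinase gene Eif2ak1 fell by 0.39 on the log2 scale and the interferon-inducible kinase gene Eif2ak2 by 0.36. The 2 ER stress sensors next to IRE1 did not pass the test and are named after their values were seen: Eif2ak3 (PERK) differed by -0.06 (adjusted p = 0.36) and Atf6 by 0.12 (adjusted p = 0.076), while upper-quartile scaling gave -0.20 (adjusted p = 0.0085, a call lower) and -0.02. Of the 4 CREB3 family genes beside Creb3l1, 3 fell and 0 rose, against 24.7% of all genes lower and 48.5% higher. Creb3l3, an enterocyte and hepatocyte factor, went from 119 ± 4.07 to 76.0 ± 3.02 FPKM (-0.64, adjusted p = 3.2e-06).

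Most targets of ATF4 and CHOP rose. Of 35 genes, Herpud1 among them, 32 rose and 2 fell, with a median of 0.63, and 7 of the 35 passed the fold threshold of 2 upwards, against 48.5% of all genes tested called higher, 24.7% lower and 3.39% past that threshold upwards. After upper-quartile scaling 25 were called higher and 2 lower (median 0.47), against 34.8% and 37% of all genes. The same 25 and 2 were called in those directions in every alternative. Stc2, a secreted glycoprotein induced by ER stress, went from 9.73 ± 1.27 to 34.7 ± 1.65 FPKM (1.74, adjusted p = 2.5e-07), and Ero1a, an oxidase that recharges protein disulfide isomerase, from 97.4 ± 1.01 to 281 ± 17.0 FPKM (1.52, adjusted p = 3.6e-08), a gene counted among the folding enzymes below too. Slc3a2, the heavy chain of amino acid transporters, fell from 26.4 ± 0.307 to 18.6 ± 1.33 FPKM (-0.49, adjusted p = 4.9e-05). Among genes named after their values were seen, Trib3, a pseudokinase that restrains ATF4 and CHOP, differed by 0.68, Ppp1r15a, the GADD34 subunit that reverses eIF2α phosphorylation, by 0.81, and Chac1, a glutathione-degrading enzyme, by 0.71. These rises stood beside an Atf4 mRNA level whose groups overlapped and a Ddit3 change of 0.15. Many of these genes have other regulators. In the promoters of this group a CARE was found in 9 of 28 (32.1%), against 3.45% of all promoters.

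Of 22 ER chaperone and folding genes tested 13 rose and 2 fell (median 0.22), and after upper-quartile scaling 9 were higher and 5 lower (median 0.07). Over all genes tested 48.5% were higher and 24.7% lower, and after upper-quartile scaling 34.8% and 37%. Fkbp11, a prolyl isomerase of secretory cells, rose by 1.27 (adjusted p = 7.3e-07). P4hb, the abundant protein disulfide isomerase, fell from 1215 ± 11.1 to 796 ± 40.6 FPKM (-0.61, adjusted p = 3.9e-06), and the oxidase gene Ero1b fell by 0.22 (-0.34 under upper-quartile scaling). An ERSE was in the promoter of 7 of 20 of these genes (35.0%), against 0.113% of all promoters. Of 25 genes of translocation and ER export 16 rose and 3 fell (median 0.18, and 9 against 6 after upper-quartile scaling), to be read against the same all-gene shares and the all-gene median of 0.13. Tram1 and Serp1, proteins at the translocon, rose by 0.93 and 0.76. Like Dnajb9 they were lower in MMK-1 replicate 3, by 0.68 and 0.65 on the log2 scale, and they stood at 0.67 and 0.50 after GC correction. Sec24d, a COPII coat subunit, fell from 28.9 ± 0.234 to 17.4 ± 0.501 FPKM (-0.70, adjusted p = 9.4e-07).

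Of 19 ERAD genes tested 6 rose and 4 fell, and 9 did not pass the test (median 0.01). After upper-quartile scaling the counts turned to 2 higher and 10 lower (median -0.14). Over all genes tested 48.5% were called higher and 24.7% lower, and after upper-quartile scaling 34.8% and 37%. Derl1, a subunit of the retrotranslocation channel, rose by 0.43 (adjusted p = 2.8e-05, and 0.27 under upper-quartile scaling), and Os9, a lectin that delivers glycoproteins to the HRD1 complex, fell from 48.3 ± 1.44 to 30.1 ± 0.798 FPKM (-0.66, adjusted p = 1.7e-06). Of 6 genes listed as targets of IRE1-dependent mRNA decay only 2 were high enough to test. Both fell, against 24.7% of all genes tested called lower. Bloc1s1, the standard readout of that decay, fell by 0.55 (adjusted p = 0.00059) and Hgsnat, a lysosomal acetyltransferase, by 0.22 (adjusted p = 0.0038, and -0.37 under upper-quartile scaling). In the other compartments, 5 of 7 cytosolic heat shock genes rose and 0 fell (median 0.34), against 48.5% of all genes higher and 24.7% lower. Hsph1 was at 0.85 and Hsp90aa1 at 0.65. Under upper-quartile scaling 4 of these 7 were higher and 2 lower, and after GC correction 5 and 2. Over all genes the GC-corrected fit called 3688 of 10308 higher and 3877 lower. Of 8 genes of the mitochondrial unfolded protein response 5 rose and 0 fell (median 0.15), with the protease gene Lonp1 at 0.89, against 48.5% of all genes higher. Under upper-quartile scaling 2 of these 8 were higher and 1 lower (median -0.01), and after GC correction also 2 and 1. Leaving out control replicate 2, control replicate 3 or MMK-1 replicate 2, each on its own, gave 3 of the 8 higher. Without MMK-1 replicate 3, 1 gene of each of these groups was called lower.

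**Figure D4:**
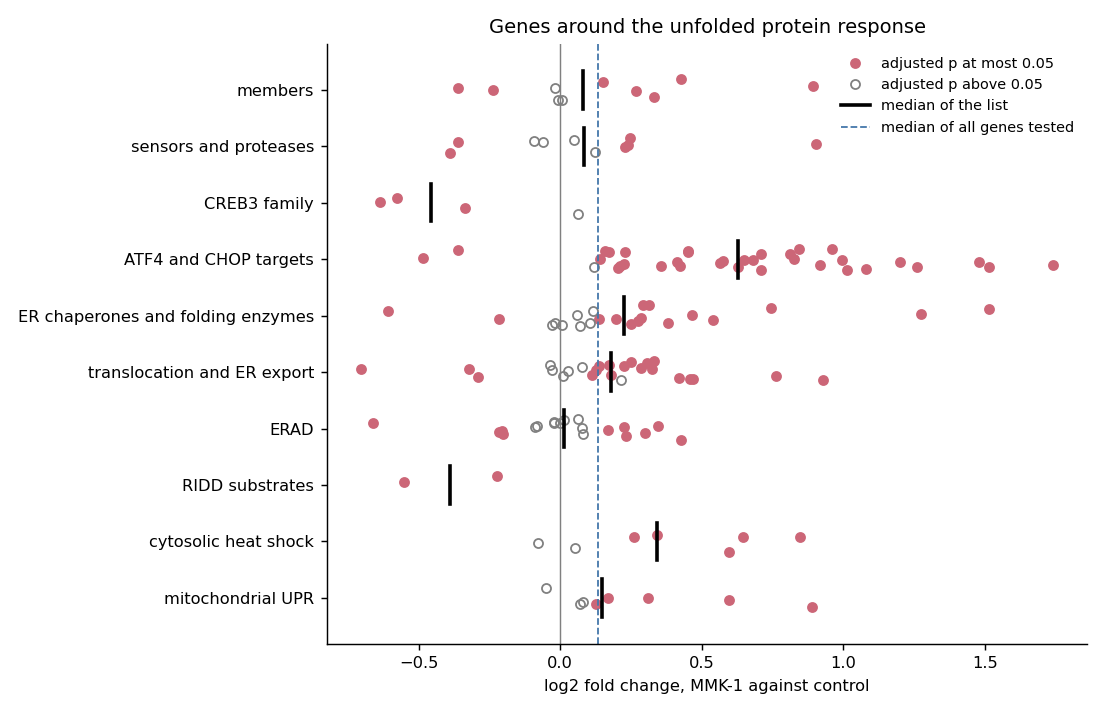
Log2 fold change of MMK-1 against control of each gene tested in the members and in the other unfolded protein response groups, with the median of each group and the median of 0.13 over all genes tested. Of the groups shown, the targets of ATF4 and CHOP have their median at 0.63 and the CREB3 family at -0.46, while the members have theirs at 0.08.

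Levels of cell type markers moved with the treatment, and their part in the values above was not tested. Their counts stand against all-gene shares of 48.5% higher and 24.7% lower, and 34.8% and 37% under upper-quartile scaling. The sums that follow cover every marker found in the table, tested or not. All 9 Paneth cell markers tested rose. Summed over the 11 Paneth markers in the table the level was 449.8 to 495 FPKM in controls and 1429 to 1561 FPKM with MMK-1. Of 10 goblet cell markers tested 8 rose and 2 fell (6 and 2 under upper-quartile scaling). The 2 that fell were Muc2, from 32.6 to 25.3 FPKM (-0.35, limma adjusted p = 0.00022), and Zg16, from 330 to 106 FPKM (-1.63, limma adjusted p = 1.5e-08). Summed over the 11 goblet markers in the table the level was 1709 to 1857 FPKM and 1849.9 to 2017 FPKM, and Ccn3 was listed at 0 in every library. Of 12 enterocyte markers 11 fell and 1 rose (0 under upper-quartile scaling), with sums of 10529 to 10604 and 5751 to 6182 FPKM. All 10 stem and cycling markers rose (216 to 218 against 593 to 601 FPKM), as did 7 of 10 enteroendocrine markers with 0 falling (5 and 1 under upper-quartile scaling, 385 to 404 against 522 to 534 FPKM). Of 8 genes of epithelial identity 3 rose and 3 fell (2 and 5 under upper-quartile scaling), with sums of 2601 to 2627 and 1978 to 2148 FPKM. Among them Epcam was at 377 to 415 FPKM in all libraries, while Vil1, a brush border protein, fell by 1.21 on the log2 scale. Leukocyte and stromal markers were near the detection limit: 2 leukocyte genes and 1 stromal gene were high enough to test, these fell (the stromal call was lost with limma-voom), and the sums were 6.21 to 6.74 against 2.47 to 3.32 FPKM and 5.84 to 6.41 against 3.75 to 5.43 FPKM. The Paneth list and the targets of ATF4 and CHOP share Nupr1.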

How the data were processed

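RNA of 3 control and 3 MMK-1 organoid samples was sequenced by the study. The authors deposited FPKM values per gene. The submitters' processing notes name HISAT2, HTSeq, R 3.2.0, DESeq2 and build mm10, and the strand setting of the counting is not given in the sources used here. All value columns were mapped to a sample by their titles.

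FPKM values are not counts, so log2(FPKM + 1) was tested with limma 3.58.1 (trend, R 4.3.3) over genes with a mean of at least 1 FPKM, with Benjamini-Hochberg adjustment and a threshold of 0.05. A log2 fold change on this scale understates the change of low genes. Exact permutation tests were run with numpy 2.4.6 and figures drawn with matplotlib 3.10.9. Since FPKM values fall on whole multiples of what 1 fragment is worth, fragments were recovered (within 0.02 of a whole number for 100% of the 20676 genes above 0) and tested with limma-voom as an alternative. The other alternatives were upper-quartile and median-of-ratios scaling, no filter, a pseudocount of 0.1, a replicate block, a GC correction (loess, span 0.3, GC content of the longest transcript, known for 97.7% of the genes tested) and leaving out each library. The GC correction also re-centred each library. The model fits were tested on simulated data.

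The members, gene groups and tests were chosen with earlier results of these data known. Beside the members, the rule named the 2 largest rises and 2 largest falls of each pathway group among genes past the threshold whose groups did not overlap, and not every gene it picked is printed. For cell type markers the summed FPKM is given. Gene places and promoters are from RefSeq GRCm38.p6.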

Additional observations from a re-analysis of the deposited data

How the results depend on the processing

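Of the members, Ern1 (higher), Xbp1 and Herpud1 (lower) were called in the same direction in the reported fit and in all 13 alternatives. The reported 5 members higher and 2 lower became 1 and 4 under upper-quartile scaling, 2 and 4 under median-of-ratios scaling and 2 and 4 after GC correction, were 4 and 2 with no filter on low genes, where Dnajb9 lost its call, and ranged from 3 to 5 higher, with 2 lower, when single libraries were left out; the count of 3 was reached without control replicate 1 and without control replicate 3. Both scalings and the GC correction remove the shift of 0.13 in the median of all genes, and the cause of that shift was not tested. What moved after GC correction therefore mixes this re-centring with GC content. Members at a fold change of at least 2 numbered 1 higher, Ern1, with a pseudocount of 0.1 and with limma-voom, and 0 to 0 in the leave-one-out fits.

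The members that did not pass the test changed sign in some fits. Atf4 was at -0.15 under upper-quartile scaling, -0.14 under median-of-ratios scaling and -0.072 after GC correction, and with single libraries left out it ranged from -0.029 (without MMK-1 replicate 3) to 0.032, also below 0 without control replicate 2. Hspa5 ranged likewise from -0.039 to 0.025, above 0 without control replicate 1 and without MMK-1 replicate 1, and was called lower under both scalings and after GC correction. Ern2 ranged from -0.087 to 0.040 (without control replicate 1), also above 0 without MMK-1 replicate 1 and without MMK-1 replicate 2. Among 130 other pathway genes, 80 higher and 17 lower became 51 and 34 under upper-quartile scaling, with 33 lower under median-of-ratios scaling and 33 after GC correction, and 74 to 83 higher and 16 to 22 lower with single libraries left out. Of all genes tested 48.5% were higher and 24.7% lower, and 34.8% and 37% under upper-quartile scaling. Median-of-ratios scaling gave 3792 and 3828 of 10551, and GC correction 3688 and 3877 of 10308. Leaving out single libraries gave 4702 to 5186 higher and 2365 to 2947 lower over all genes.

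Same-numbered control and MMK-1 libraries did not deviate together (correlations of 0.025, -0.040 and 0.028). With 3 libraries per group, and MMK-1 replicate 3 apart from its group, this cannot tell whether same-numbered samples share an origin. A replicate block gave 5 members higher and 2 lower and changed no member's call. Creb3l1, Ern2 and Sdf2l1 rest on the fewest fragments, which limits the precision of their changes.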
